A study of Mus musculus with 2 samples.

Results

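Amy1, Chia1, Car6, Dnase1 and Ggh encode enzymes that the parotid gland secretes into saliva. These 5 genes were taken by name from the 48825 features of the count matrices and followed through every cell class of a control and an irradiated (IR) mouse parotid gland. All 5 were found in both matrices and had UMIs (unique molecular identifiers, each standing for 1 captured RNA molecule) in every class, so no member was lost to a filter. Both groups were wild-type (WT) female C3H mice. The IR mice had been given 6 Gy a day to the head and neck for 5 days, 30 Gy in total, when 6 to 10 weeks old, and glands were collected 10 months later, at about 1 year of age. Control mice were Non-Irradiated and otherwise alike. The cells of 2 mice were pooled into 1 droplet library per condition, so animals cannot be told apart and no difference below has a replicate check or a p-value. The intervals given are 95% intervals for counting error alone. A ratio between libraries compares those 2 libraries, and a gene was called different in a class where its ratio was at least 1.5 or at most the inverse of that, with genes of fewer than 100 UMIs in the 2 sums together left out of the count.

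The serous acinar cells of the parotid gland make a watery, protein-rich saliva, which intercalated and then striated ducts carry and modify on the way to the mouth. Amylase begins the digestion of starch, acidic chitinase cuts the chitin of insects and fungi, and carbonic anhydrase VI, the secreted member of its family, helps to buffer saliva. Deoxyribonuclease I cuts extracellular DNA, and gamma-glutamyl hydrolase trims the glutamate tail of folates. Acinar cells store such proteins together in granules until secretion is stimulated.

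The control library held 5550 barcodes and 22707876 UMIs and the IR library 7793 barcodes and 23890757 UMIs, of which 3378 and 5286 cells were kept, with median depths of 2908 and 2462 UMIs. The libraries shared 12 barcodes, 3 of them among kept cells. Acinar cells numbered 384 in control and 373 in IR, and the Etv1+ cells, a secretory population named for the transcription factor Etv1, numbered 268 and 265. Intercalated duct cells numbered 103 and 124, and striated duct cells 92 and 80. None of the 5 enzyme genes was used to name a class, but they were among the genes used for clustering. The acinar class passed 7 of its 9 markers, the Etv1+ class 8 of 8 and both duct classes all of theirs. The median depth of Etv1+ cells was 23759 UMIs in control and 5617 in IR, that of intercalated duct cells 1265 and 4653, and that of striated duct cells 714 and 1989, while acinar cells were alike at 5198 and 5540.

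Amy1 and Chia1 both lie on chromosome 3, 7.42 Mb apart, and the other members lie elsewhere (all positions in GRCm38, with GENCODE M21 annotation). Amy1 spans chr3:113555710-113606699 on the minus strand and overlaps Rnpc3 on the same strand at its upstream end. Chia1 spans chr3:106113229-106132120 on the plus strand. Car6 spans chr4:150187015-150201332 on the minus strand, and Ggh spans chr4:20042052-20066750 on the plus strand. Dnase1 spans chr16:4036942-4040024 on the plus strand, where it overlaps the antisense gene Gm15879 and the end of Trap1 on the other strand. Since the amylase genes are near copies of each other, the last 500 bases of every member's transcripts were searched in other genes in windows of 60 bases. For Amy1, 1.15% of 1742 windows were also found elsewhere, nearly all in Amy2b, and for the other 4 members no window was.

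Because the 5 genes were highest in the same cells, the bases around their transcription start sites are shown. RefSeq (GRCm38.p6) gave start regions for 4 of the 5 members, and the starts that hold a TATA-like motif are printed from 100 bases before the start to 20 bases from it. Capitals mark TATAAA, searched on both strands, or TTTAAA, which reads the same on both. The regions are chr3:113574743-113574862 on the minus strand for Amy1, chr3:106113282-106113401 on the plus strand for Chia1, chr4:150201116-150201235 on the minus strand for Car6 and chr16:4037045-4037164 on the plus strand for Dnase1.
Amy1: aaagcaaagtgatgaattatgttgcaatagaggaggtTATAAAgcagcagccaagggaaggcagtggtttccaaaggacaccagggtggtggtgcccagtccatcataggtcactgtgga
Chia1: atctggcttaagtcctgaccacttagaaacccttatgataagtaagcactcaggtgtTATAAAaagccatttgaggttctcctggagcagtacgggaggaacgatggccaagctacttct
Car6: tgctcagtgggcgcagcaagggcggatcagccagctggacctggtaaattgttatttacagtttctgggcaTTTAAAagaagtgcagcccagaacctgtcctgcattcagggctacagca
Dnase1: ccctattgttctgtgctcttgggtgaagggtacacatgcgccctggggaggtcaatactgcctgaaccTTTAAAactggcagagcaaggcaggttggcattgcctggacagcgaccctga
The motif began 63 bases before the Amy1 start, 43 before that of Chia1, 29 before that of Car6 and 32 before that of Dnase1. The other start of Amy1 (chr3:113577750) and the other start of Dnase1 (chr16:4037036) lay upstream of the printed ones and held neither motif. The printed starts were chosen for holding a motif, and which start these cells use was not measured. Over 32851 start regions of this length, 6.10% held TATAAA and 4.95% held TTTAAA. In 1.99% TATAAA lay on the gene's strand 40 to 15 bases before the start, and the Amy1 and Chia1 matches began outside that stretch. These are matches of letters and nothing was measured on them.

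The 5 enzymes together made up 20.01% of all UMIs in control acinar cells and 18.05% in IR acinar cells, and 19.69% and 17.61% in Etv1+ cells. Levels are given as UMIs of the gene per 1000000 UMIs of the class (CPM). UMIs are counted at the 3′ end of a transcript, so they do not grow with its length. Other differences in capture between genes were not measured, so the order of members is one of UMIs. In control acinar cells, Chia1 was the highest member at 78130 CPM (interval 77820 to 78450), at rank 3 of 11190 genes with a UMI. Amy1 was next at 71250 CPM (70950 to 71550). Dnase1 at 25450 CPM and Car6 at 22980 CPM held ranks 7 and 8, and Ggh, at 2289 CPM (2235 to 2344), was far below the other 4. Every acinar cell of both libraries held UMIs of Amy1, Chia1, Car6 and Dnase1. Ggh had UMIs in 95.8% of control acinar cells.

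In control Etv1+ cells the levels were close to those in acinar cells. Amy1 stood at 63190 CPM, 0.887 times its acinar level (interval 0.882 to 0.891), and Ggh at 1912 CPM, 0.835 times (0.812 to 0.860). Car6 (23560 CPM, 1.03 times), Chia1 (79680 CPM, 1.02 times) and Dnase1 (28530 CPM, 1.12 times) were slightly higher than in acinar cells. None of the 5 was called between these classes, where 48.5% of 2736 genes were, and the median gene was 1.45 times higher in Etv1+ cells. With the abundant secretory genes left out of the total the median gene stood at 0.919 and 4 of the 5 members, all but Dnase1, were called lower in Etv1+ cells, beside 16.6% of genes. On that scale Amy1 stood at 0.563 and Ggh at 0.531.

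Acinar and Etv1+ cells held most of the enzyme RNA of each library. In control they were 19.3% of kept cells and held 92.3% (Ggh) to 94.4% (Chia1) of each member's UMIs. In IR they were 12.1% of cells and held 83.2% (Car6) to 85.7% (Amy1). These classes also held much of all RNA counted. In control, acinar cells had 2970734 and Etv1+ cells 7591462 of the 19068309 UMIs of kept cells. In IR they had 2703565 and 4766492 of 20348028. The shares of each member therefore depend on the share of all UMIs in these classes too. The immune classes, 70.5% of control and 82.1% of IR cells, held 4.20% to 5.90% of each member's UMIs in control and 9.22% to 11.8% in IR. A gene was called high in a class where its CPM reached 2 times the CPM of the rest of the library. All 5 members were high in Etv1+ cells of both libraries, beside 11.2% of genes in control and 13.4% in IR. In acinar cells Amy1 (2.18 times) and Ggh (2.26 times) were high in control and Car6 (1.86), Chia1 (1.92) and Dnase1 (1.74) fell short, beside 1.08% of genes. In IR acinar cells all 5 were high, at 2.42 times (Dnase1) to 3.30 times (Amy1), beside 4.63% of genes. The other cells of a library include the Etv1+ cells, so these values also depend on how many of those were captured. The members were among the genes used for clustering, so these calls are a description.

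**Figure D1:**
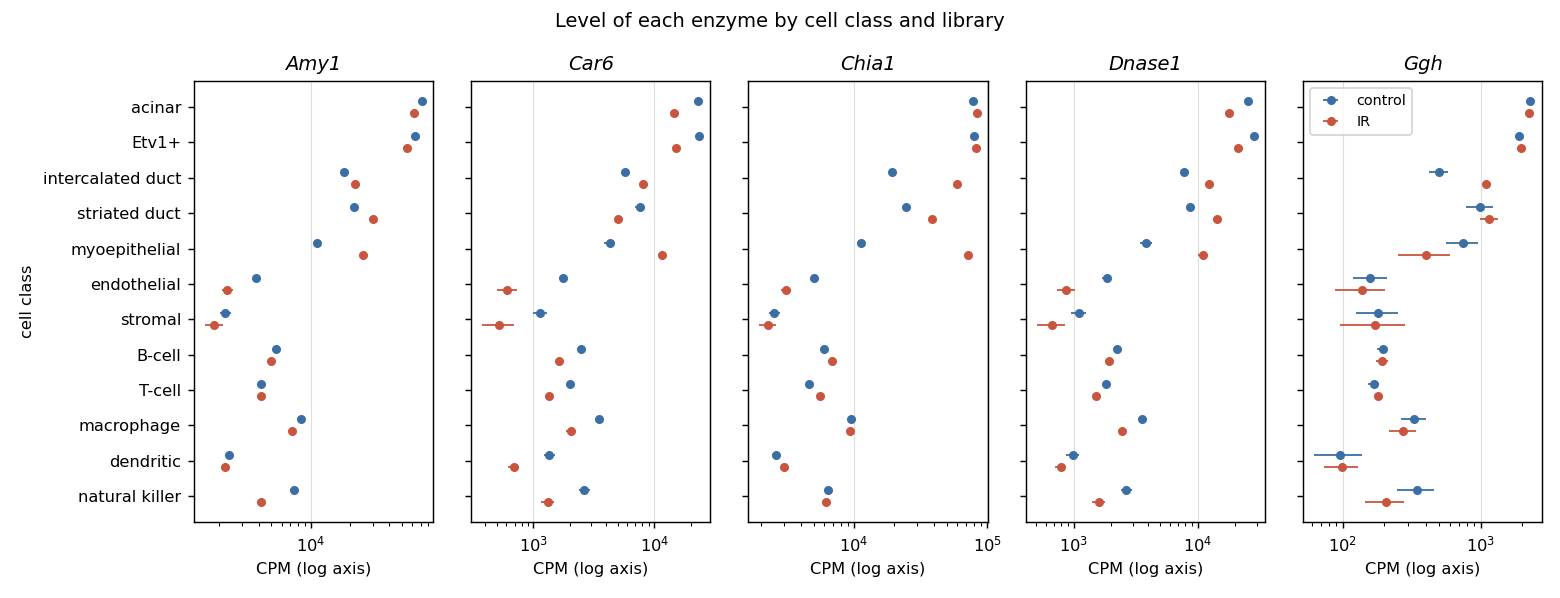
Level of each enzyme gene in CPM (log axis) in the named cell classes other than red blood cells, for the control and IR libraries, with 95% Poisson intervals for counting error; each point is 1 library. Acinar and Etv1+ cells are highest for every member in both libraries, and Ggh lies well below the other 4 genes in each class.

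Outside the secretory classes the order of Amy1 in control was striated duct (21350 CPM), intercalated duct (18190), myoepithelial (11270), macrophage (8446), natural killer (7456), red blood cell (6268), cluster 7 (5607), B-cell (5433), T-cell (4190), endothelial (3835), cluster 5 (3059), dendritic (2375) and stromal (2221). The neighbours red blood cell and cluster 7, cluster 7 and B-cell, and dendritic and stromal had overlapping counting intervals. Cluster 5, led by Gzmm and Klrc2, carried markers of more than 1 type, and cluster 7 was led by Jchain and cell cycle genes, so neither was given a cell type. In IR the order began with striated duct (29920 CPM), myoepithelial (25020), intercalated duct (22030) and red blood cells (20630), and the lowest were endothelial (2307), dendritic (2228) and stromal cells (1812). Striated duct cells were the highest class after acinar and Etv1+ cells for all 5 members in control. The myoepithelial and red blood cell values of IR rest on few cells, since the 5 cells with most enzyme UMIs held 90.4% and 92.4% of those classes' enzyme UMIs. In control these shares were 79.3% and 76.5%, and 64.0% in natural killer cells. By the median cell, Amy1 in control natural killer cells (3230 CPM) was below that in B-cells (3926 CPM), against the order given. Cluster 7 (12460 CPM) then stood above myoepithelial cells (12000) and macrophages (11100), and red blood cells fell to 2175 CPM. Other places moved too. Control macrophages and cluster 7 were shallow, with median depths of 830 and 802 UMIs.

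B-cells were taken as a reference for the level outside the secretory classes, and whether they make any of the enzymes was not tested. The source of their enzyme UMIs was not tested. B-cells do not set 1 level for all immune cells, since Amy1 in control ran from 2375 CPM in dendritic cells to 8446 CPM in macrophages. These 2 classes also differed in depth, with medians of 5634 and 830 UMIs. In control B-cells Amy1 stood at 5433 CPM, 0.0763 times its acinar level, and 99.8% of the cells held at least 1 Amy1 UMI at a median depth of 2539 UMIs. Car6 was at 2480 CPM and 0.108 times, Chia1 at 5996 CPM and 0.0767 times, Dnase1 at 2258 CPM and 0.0887 times, and Ggh at 195 CPM and 0.0852 times. The share of cells with a UMI therefore does not separate acinar cells from B-cells for the 4 abundant members. For Ggh, 35.8% of control B-cells held a UMI against 95.8% of acinar cells, and with every cell thinned to 1000 UMIs the shares were 14.95% and 88.6%.

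The members did not differ alike between IR and control acinar cells. Car6, the secreted carbonic anhydrase, was lower, from 22980 CPM in control to 14610 CPM in IR, a ratio of 0.636 (interval 0.628 to 0.644). Dnase1 went from 25450 to 18010 CPM, a ratio of 0.708 (0.700 to 0.716), just short of the call. Amy1 went from 71250 to 62240 CPM, a ratio of 0.874 (0.868 to 0.879). Chia1 was slightly higher, at 78130 and 83460 CPM (1.07, 1.06 to 1.07). Ggh stood at 2289 and 2235 CPM, with an interval of the ratio that included equality (0.976, 0.943 to 1.01). Car6 was the 1 member called, beside 18.6% of 1153 genes called in either direction and 1.91% called lower. By rank, Chia1 went from 3 to 2, Dnase1 from 7 to 9 and Car6 from 8 to 10, while Amy1 held rank 4 in both libraries.

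The scaling moves these ratios together. The median gene of acinar cells was 1.21 times higher in IR, and against that median Car6 stood at 0.527, Dnase1 at 0.587, Amy1 at 0.725, Ggh at 0.810 and Chia1 at 0.886, so all 5 lay below it. With the 10 most abundant secretory genes, among them 4 members, left out of the total, the median gene stood at 1.02. Car6 (0.535) and Dnase1 (0.596) were then both called lower, beside 5.29% of genes. Chia1 stood at 0.899 on that scale, so its direction depends on the scaling, while Car6, Dnase1 and Amy1 were below 1 on both. The summed enzyme level of acinar cells was 0.902 times that of control (0.899 to 0.906) over all genes and 0.760 times (0.757 to 0.763) without the abundant genes.

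In Etv1+ cells each member stood near its acinar ratio. Car6 went from 23560 to 15130 CPM (0.642, interval 0.636 to 0.648) and was again the 1 member called, beside 17.1% of 3738 genes in either direction and 1.39% lower. Dnase1 went from 28530 to 21380 CPM (0.749), Amy1 from 63190 to 54860 CPM (0.868), Chia1 from 79680 to 82770 CPM (1.04) and Ggh from 1912 to 1965 CPM (1.03). Etv1+ cells differed in depth between the libraries, so they were also split into 5 subclusters. Car6 had ratios of 0.515 to 0.781 over the 5 subclusters, and Dnase1 of 0.717 to 0.880. Those with 80 control and 48 IR cells, 35 and 52, and 22 and 24 had fewer than 50 cells in a library. No member was called in them, beside 12.8%, 19.8% and 22.0% of genes. In the smallest, the 5 cells with most enzyme UMIs held 51.2% of them in control and 60.3% in IR. With all genes in the total, Chia1 was above 1 in all 5, at 1.02 to 1.32. In the shallow subcluster, with 64 control and 85 IR cells at median depths of 1030 and 991 UMIs, Car6 stood at 0.515 (0.468 to 0.567) and Dnase1 at 0.749. Without the abundant genes in the total, Car6 (0.530) and Dnase1 (0.618) were both called in Etv1+ cells, beside 5.67% of genes called lower. With all genes in the total, the median gene of Etv1+ cells stood at 1.19, above the ratios of Chia1 and Ggh. Without the abundant genes Chia1 went from 359500 to 308200 CPM and Ggh from 8627 to 7319 CPM. The direction of these 2 members in Etv1+ cells thus depends on the scaling.

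**Figure D2:**
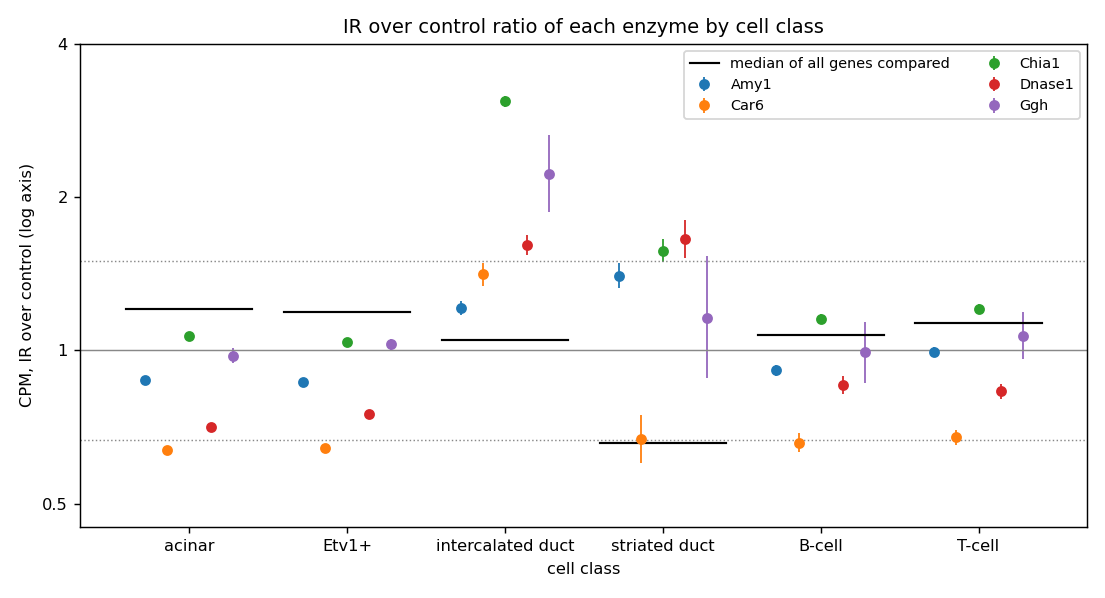
IR over control ratio of CPM for each enzyme gene (log axis) in 6 classes, with exact 95% intervals for counting error, 1 library per condition; short black lines mark the median of all genes compared and dotted lines the limits of a call. Car6 lies below 1 in acinar and Etv1+ cells and in B-cells, and Chia1 lies highest in intercalated duct cells at 3.08.

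The same order of ratios was measured in B-cells and T-cells, outside the secretory classes. In B-cells the IR over control ratio was 0.658 for Car6 (interval 0.631 to 0.687), 0.854 for Dnase1, 0.913 for Amy1, 0.990 for Ggh and 1.15 for Chia1, beside 10.0% of 4479 genes called and 3.01% called lower. In T-cells it was 0.674 for Car6, 0.831 for Dnase1, 0.993 for Amy1, 1.07 for Ggh and 1.21 for Chia1. Over the 9 classes with at least 50 cells in both libraries Car6 was below 1 in 8, from 0.545 (cluster 7) to 0.809 (cluster 5). These 8 include striated duct cells, where the median gene stood at 0.658, so Car6 there was near a typical gene. Car6 was above 1 only in intercalated duct cells, where its ratio depended on which cells were kept. The level of Car6 in B-cells was 0.108 times that in acinar cells in control and 0.112 times in IR, and with the B-cell level of each library subtracted the Car6 ratio was 0.633 in acinar and 0.640 in Etv1+ cells.

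Single cells spread widely within each class. In control acinar cells Car6 had a median of 20880 CPM per cell (quartiles 15960 and 27390), and in IR of 13170 CPM (8013 and 19500). Of the 373 IR acinar cells, 78.8% lay below the control median for Car6, 76.4% for Dnase1, 68.1% for Amy1, 51.2% for Ggh and 46.1% for Chia1. Among the 265 IR Etv1+ cells the shares were 88.3% for Car6, 72.1% for Dnase1, 64.2% for Amy1, 55.1% for Ggh and 39.3% for Chia1. As many control cells lie below their median as above it, so the Car6 values of both classes were shifted as distributions. These shares cannot tell which single cells differ, and the cells of a library are not replicates of the condition.

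Within a cell, Chia1, Dnase1 and Amy1 tended to be high together, and Car6 followed them less. Ggh followed Chia1 and Dnase1 less, but in IR it was as close to Amy1 as Chia1 was, before thinning. Over 367 control and 352 IR acinar cells with at least 1000 UMIs, the rank correlation of CPM was 0.730 and 0.607 for Chia1 with Dnase1. It was 0.576 and 0.579 for Amy1 with Dnase1, and 0.465 and 0.429 for Amy1 with Chia1. Car6 with each of the other 4 gave −0.0588 to 0.167 over both libraries. Ggh gave −0.139 and 0.0667 with Chia1, −0.0286 and 0.164 with Dnase1, and 0.220 and 0.448 with Amy1. Thinning each cell to 1000 UMIs left 0.686 and 0.563 for Chia1 with Dnase1, 0.447 and 0.407 for Amy1 with Chia1, and 0.143 and 0.309 for Amy1 with Ggh. In Etv1+ cells Car6 stood at 0.243 to 0.373 with the others, although thinning took its value with Ggh in control from 0.243 to 0.033. Chia1 with Dnase1 stood at 0.718 and 0.646 there, and Amy1 with Chia1 at 0.648 and 0.442. Amy1 with Ggh stood at 0.451 and 0.488 in these cells, and at 0.169 and 0.341 after thinning. These values describe cells of 1 library each, which differ in depth and may share free RNA, and the part of either was not tested. Shares of 1 total are also not independent of each other.

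**Figure D3:**
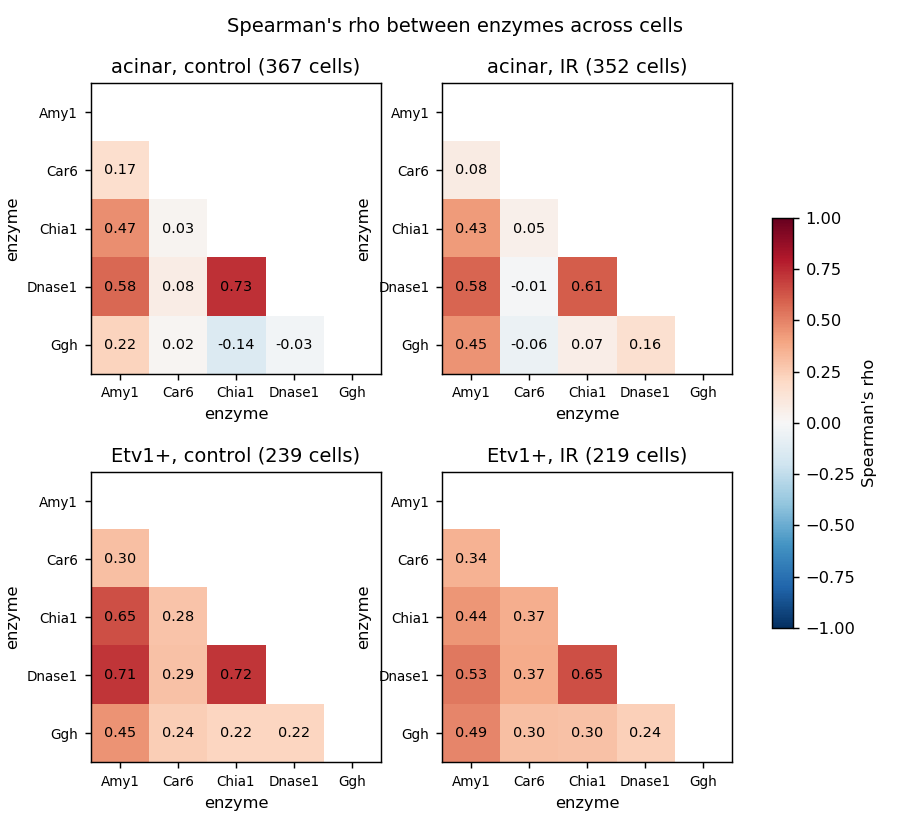
Spearman rank correlation of per-cell CPM for the 10 pairs of enzyme genes in acinar and Etv1+ cells of each library, over cells with at least 1000 UMIs. Chia1 with Dnase1 is highest in control acinar cells (0.730), and the pairs with Car6 stay near 0 in acinar cells.

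As shares of the enzyme UMIs, the mix of the 5 genes differed between libraries. In control acinar cells Chia1 made up 39.1%, Amy1 35.6%, Dnase1 12.7%, Car6 11.5% and Ggh 1.14%. In IR acinar cells Chia1 made up 46.2%, Amy1 34.5%, Dnase1 9.98%, Car6 8.09% and Ggh 1.24%. The mix of control Etv1+ cells was 40.5% Chia1, 32.1% Amy1, 14.5% Dnase1, 11.97% Car6 and 0.971% Ggh, and that of IR Etv1+ cells 47.0%, 31.2%, 12.1%, 8.59% and 1.12%. Single acinar cells ranged further than counting error alone, with a spread of the Car6 share 4.70 times the counting spread in control and 6.09 times in IR. For Dnase1 these were 2.69 and 3.27 times.

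The mix was also taken in B-cells and in barcodes that no class used. B-cells held more Car6 than acinar cells of the same library, at 15.2% (interval 14.8 to 15.5) in control and 10.4% (10.1 to 10.8) in IR. The 912 control and 649 IR barcodes left out for having under 200 genes held 12.7% and 8.02% Car6, and 38.2% and 47.6% Chia1, close to the mix over all kept cells of their own library (39.8% and 47.0% Chia1). The lower share of Car6 and the higher share of Chia1 in IR were present in these barcodes too.

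**Figure D4:**
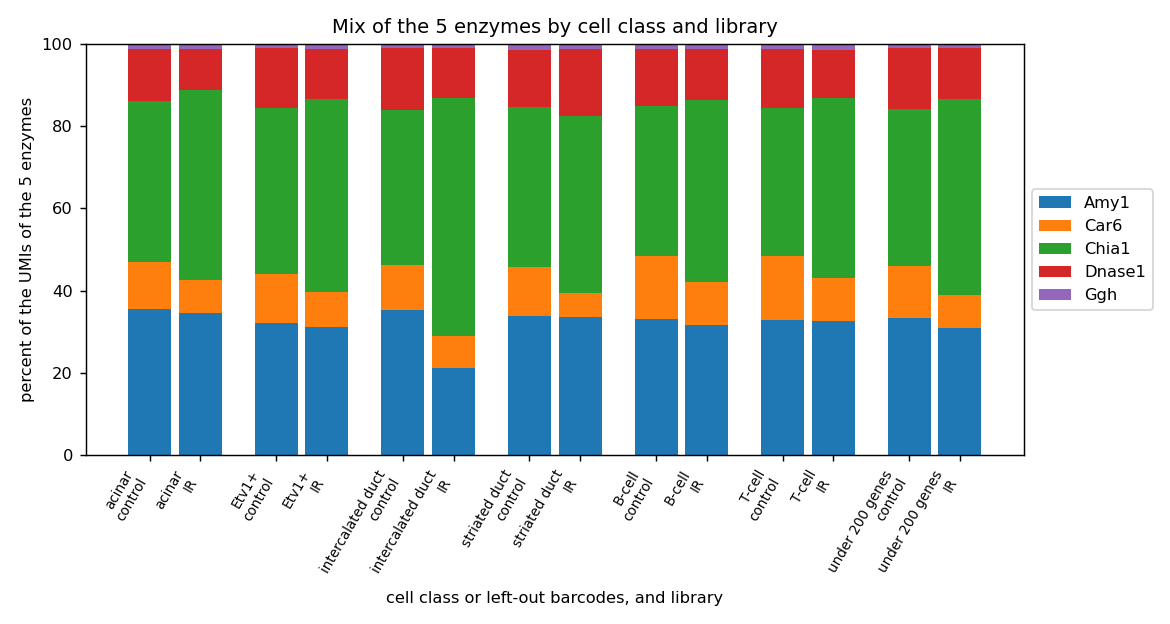
Share of each enzyme gene among the UMIs of the 5 enzymes (percent), by class and library and in the barcodes left out for under 200 genes, with each bar adding up to the whole. Car6 takes a smaller and Chia1 a larger share in IR than in control, and IR intercalated duct cells hold most Chia1 among the classes with at least 50 cells, at 57.8%.

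Duct cells held less enzyme RNA than secretory cells in both libraries. The 5 enzymes made up 5.15% of UMIs in control intercalated duct cells and 10.4% in IR, a ratio of 2.01 (interval 1.97 to 2.04), and 6.31% and 8.89% in striated duct cells, a ratio of 1.41 (1.37 to 1.46). In intercalated duct cells Chia1 went from 19410 to 59850 CPM (3.08, 3.003 to 3.17), Ggh from 496 to 1102 CPM (2.22, 1.87 to 2.65) and Dnase1 from 7753 to 12470 CPM (1.61, 1.54 to 1.68). Car6 (5697 and 8033 CPM, 1.41) and Amy1 (18190 and 22030 CPM, 1.21) were not called. These 3 calls stand beside 31.6% of 301 genes called in either direction and 17.9% called higher. The 5 intercalated duct cells with most enzyme UMIs held 47.5% of that class's enzyme UMIs in control and 14.4% in IR. In striated duct cells Dnase1 went from 8684 to 14380 CPM (1.66) and Chia1 from 24490 to 38430 CPM (1.57), both called, beside 60.9% of 215 genes called and 9.77% called higher. Amy1 there went from 21350 to 29920 CPM (1.40) and Car6 from 7567 to 5059 CPM (0.669), while the interval for Ggh included equality (0.883 to 1.53). The median gene of striated duct cells stood at 0.658, close to Car6. Without the abundant genes in the total, Car6 there went from 11220 to 11120 CPM. Abundant secretory genes moved with these values, since the 10 of them made up 35.4% of UMIs in control and 52.0% in IR intercalated duct cells, and 28.1% and 51.5% in striated duct cells. Their part in the ratios was not tested. Over both ducts together Chia1 (2.73), Ggh (1.87) and Dnase1 (1.62) were called higher, beside 44.0% of genes called and 10.4% called higher. These calls depended on which cells were kept. With a mitochondrial limit of 10% the ratios were 1.39 for Chia1, 0.912 for Ggh and 1.02 for Dnase1, with the members left out of clustering 1.39, 0.918 and 1.03, and with at least 500 genes per cell 1.56, 1.26 and 1.17.

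The IR intercalated duct cells fell into sets that differed in enzyme level. When the libraries were clustered together without integration, 67 of the 124 IR intercalated duct cells joined the Etv1+ cells and 55 stayed with duct cells, against 5 and 91 of the 103 control cells. The 67 cells had a median depth of 7220 UMIs, and the enzymes made up 12.1% of their UMIs. They held 230700 CPM of Dcpp1, an intercalated duct marker, beside 340900 CPM of Bpifa2, the most abundant acinar secretory gene. The other 55 cells held 445700 and 167100 CPM of these genes, and IR striated duct cells 343300 CPM of Bpifa2. In 23 IR Etv1+ cells that joined duct cells with the members left out of clustering, the 2 genes stood at 218400 and 263900 CPM. Etv1 was at 24.0 CPM in the 67 cells, from 12 UMIs. It was at 193 CPM in the 23 cells, 201 CPM in the other IR Etv1+ cells and 21.45 CPM in IR acinar cells. The median doublet score of the 67 cells was 0.0341, against 0.0475 over the IR library. The other 55 cells had a median depth of 975 UMIs and 2.07% enzyme UMIs, and the 91 control cells 1104 UMIs and 3.25%. The 5 control cells that joined Etv1+ cells had 10.2% enzyme UMIs. The members were among the genes used in that clustering, so the sets are a description and their enzyme levels are no test of a difference between IR and control.

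The mix of the 67 cells differed from that of IR acinar cells. Chia1 made up 58.4% of their enzyme UMIs (interval 58.0 to 58.8) and Amy1 20.8%, with Dnase1 at 12.02%, Car6 at 7.74% and Ggh at 1.04%. In IR acinar cells Chia1 was 46.2% and Amy1 34.5%. The mix recurred from cell to cell, since in the 65 of these cells with at least 50 enzyme UMIs the quartiles were 56.4% and 59.8% for Chia1 and 19.7% and 21.9% for Amy1. The 55 other cells had 45.4% Chia1 and 31.7% Amy1, near the mix of IR acinar cells and of the barcodes left out. The 5 richest of the 25 IR myoepithelial cells, with 61.5% Chia1, 19.9% Amy1 and 0.193% Ggh, had a high Chia1 share as well, while the other 20 cells had 43.3% Chia1 and 30.9% Amy1. Striated duct cells of IR differed in another way, with 5.69% Car6 (5.30 to 6.10) and 16.2% Dnase1 (15.5 to 16.8), against 8.09% and 9.98% in IR acinar cells.

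**Figure D5:**
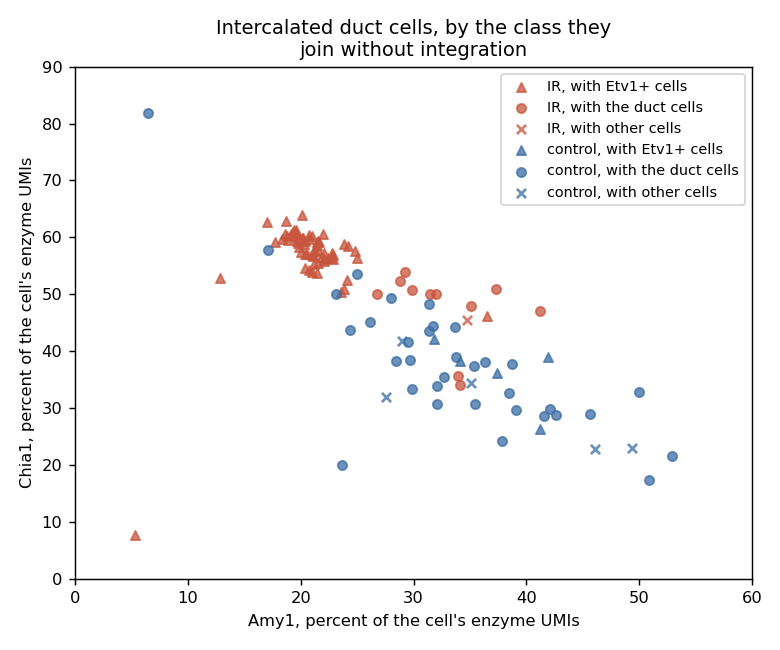
Share of Chia1 against share of Amy1 among the enzyme UMIs (percent) of single intercalated duct cells with at least 50 enzyme UMIs, by library and by the class they joined without integration. The 65 IR cells that joined Etv1+ cells have medians of 58.5% Chia1 and 20.8% Amy1, most of them with more Chia1 than nearly all control cells, and 1 of them lies far below the rest.

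Relatives of the 5 enzymes were ranked over the classes with at least 50 cells in both libraries, with both libraries taken as 1 sum, and several had few UMIs. Of 6 other amylase genes, 5 had no UMI and Amy2b had 44 over both libraries, so parotid amylase RNA was assigned to Amy1. Of 15 other carbonic anhydrases only 3 had at least 100 UMIs. Car2, a cytosolic form, was highest in striated duct cells at 106 CPM and had an IR over control ratio of 1.82 (interval 1.32 to 2.52) in acinar cells, where the median gene was at 1.21 and Car6 at 0.636. Car12, a membrane form, was at 39.7 CPM in striated duct cells, from 1 UMI in control and 8 in IR. Car4 had 150 UMIs in all, but no more than 2 in acinar, Etv1+, duct, B-, T-, macrophage or dendritic cells of either library, so no class is named for it. Of 9 chitinases and chitinase-like genes, 8 were in the files and 2 had at least 100 UMIs. Chid1 reached 19.7 CPM in Etv1+ cells, and Ctbs was at 10.5 CPM in macrophages, from 4 UMIs in control and 2 in IR. Of 5 other deoxyribonucleases, Dnase2a, the lysosomal enzyme (110 CPM), Dnase1l3 (73.3 CPM) and Dnase1l1 (24.4 CPM) had at least 100 UMIs and were highest in macrophages, Dnase1l1 from 6 UMIs in control and 8 in IR. Dendritic cells, with 44 control cells, were not ranked. In control and IR they held Dnase1l1 at 7.31 and 34.8 CPM and Ctbs at 14.6 and 13.5 CPM, so macrophages need not be highest for these 2 genes.

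Of 9 folate enzymes and carriers 8 had at least 100 UMIs. Tyms (138 CPM), which serves DNA synthesis, Shmt2 (47.9 CPM) and Slc19a1 (16.0 CPM) were highest in cluster 7, whose leading genes include the cell cycle genes Mki67 and Top2a. Fpgs, which adds the glutamates that Ggh removes, was at 4.04 CPM in control and 5.55 CPM in IR acinar cells and at 16.4 and 16.7 CPM in B-cells. Slc46a1, a folate carrier, was at 5.80 and 6.92 CPM in Etv1+ cells, with 6 UMIs or fewer in duct cells of either library. Shmt1 was at 20.6 and 21.3 CPM in macrophages, from 6 UMIs in each library. Of 8 other saliva enzymes 1 was highest in a secretory class, Lpo, a peroxidase that makes antimicrobial products in saliva, at 531 CPM in Etv1+ cells. Its IR over control ratio in acinar cells was 0.862. Klk1, a secreted protease, was highest in striated duct cells at 22260 CPM, and Lyz2 (10680 CPM) and Lyz1 (908 CPM), both lysozymes, and Rnase4 (133 CPM) in macrophages. Klk1 and Lyz2 were among the markers that named these 2 classes, so their places are no result. In striated duct cells Klk1 stood at 45390 CPM in control and 9502 CPM in IR. Lipf had no UMI and Ang, an angiogenin, had 24.

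Over 26 points, the 13 named classes of both libraries, the genes most like each member in log2(CPM + 1) were mostly other secretory genes. Amy1 was most like Dnase1 (Pearson r = 0.985), then Pip (0.980) and Chia1 (0.978). Dnase1 was most like Amy1, Pip (0.985) and Bpifa2 (0.977). Car6 was most like Dnase1 (0.970), Pip (0.962) and Amy1 (0.958), and Ggh was most like Cst10 (0.964), Pip (0.964) and Bpifa2 (0.955). Chia1 was most like 2310057J18Rik (0.981), Amy1 and Dnase1 (0.972). The classes of 1 library may share free RNA, which was not tested, so these values are a description over 10404 genes.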

How the data were processed

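Single-cell RNA-seq libraries of dissociated parotid glands, 1 from control and 1 from IR mice, had been made with 10x Chromium v3 chemistry. The authors deposited raw UMI counts per gene and barcode, made with Cell Ranger 3.0.1 on mm10 according to the submitters' processing notes, which also name Seurat 3. The step that called cells is not given in the sources used here. Barcodes under 200 genes or over 5% mitochondrial UMIs were dropped. The libraries were integrated in Seurat 5.3.0 (R 4.3.3) with 2000 variable genes and 30 components and clustered at resolution 0.3, duct cells at 0.4. Doublets were scored with Scrublet (scanpy 1.11.5) and removed only in an alternative. Clusters were named from marker lists. The lists held none of the 5 members, which were among the variable genes and were left out of them in an alternative. The naming rules on leading genes and on ties were settled after the clusters were seen. The members, relatives and lists were chosen with earlier results of these data known.

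UMIs were summed per class and library and given as CPM. Intervals are exact at 95% (Poisson for levels, Clopper-Pearson for shares, conditional binomial for ratios) and cover counting error only. With 1 library per condition no test was made, and calls follow the rule of size given in the text. Scripts were tested on simulated data. The genes named were the 5 members, the relatives with at least 100 UMIs (some are not reported here) and the 3 genes most like each member; Amy2b, Ang and Lipf, and marker or leading genes that describe a cluster, were named after their values were seen. A total without abundant genes leaves out genes over 1% of acinar UMIs, mitochondrial and haemoglobin genes and Gm42418. TMM factors came from edgeR 4.0.16, and other steps used Python 3.11.15 with numpy 2.4.6, scipy 1.17.1 and matplotlib 3.10.9.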

Additional observations from a re-analysis of the deposited data

Results flagged for a closer look

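Some members stood on opposite sides of 1 in duct and in acinar cells, and these differences were not tested, since each condition has 1 library. The IR over control ratio of Amy1 was 1.21 in intercalated duct cells and 1.40 in striated duct cells against 0.874 in acinar cells, which makes the duct ratios 1.39 and 1.60 times the acinar ratio. That of Car6 was 1.41 in intercalated duct cells against 0.636 in acinar cells, 2.22 times. That of Dnase1 was 1.61 and 1.66 in intercalated and striated duct cells against 0.708, 2.27 and 2.34 times. The intercalated duct ratios depended on which cells were kept. Of 3 alternatives for these cells, 2 kept the ratios above 1, reaching 1.74 for Amy1, 1.87 for Car6 and 2.09 for Dnase1. In cells that stayed with duct cells without integration the ratios were 0.618 for Amy1, 0.482 for Car6 and 0.520 for Dnase1, below 1 as in acinar cells. That clustering used the members, so these values are no test either. Over both ducts Car6 kept its side of 1 in 5 of 10 alternatives, Amy1 in 7 and Dnase1 in 10.

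The barcodes left out for under 200 genes entered no comparison between classes. Their IR over control ratio was 1.17 for Amy1 (11470 and 13380 CPM in control and IR), 1.56 for Chia1 (13160 and 20560 CPM) and 1.28 for Ggh (355 and 454 CPM). Dnase1 was at 5115 and 5368 CPM in them, and Car6 at 4396 and 3465 CPM.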

How the results depend on the processing

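No paired analysis was possible because each condition has 1 library, and for the same reason no library could be left out. Of 435 values under the alternatives, 205 stayed within the counting interval or 1.5 times the count, 225 moved and 5 reversed. Only a ratio called in the main setting could be counted as reversed. Ratios not called there that crossed 1 are among those that stayed or moved. Car6 over both ducts, for example, kept its side of 1 in 5 of 10 alternatives. In acinar cells Amy1 (0.694 to 0.885), Car6 (0.505 to 0.640) and Dnase1 (0.562 to 0.715) stayed below 1 in all 10 alternatives, Chia1 ranged from 0.848 to 1.11 and Ggh from 0.775 to 1.004. The members called between IR and control were 2 in acinar and 2 in Etv1+ cells without abundant genes and with TMM factors, 2 in acinar cells by the median cell, and 0 in both at a 2-fold limit. Between Etv1+ and acinar cells of control, 4 were called without abundant genes and 4 with TMM. Of the pairs of member and class called over acinar, Etv1+ and both ducts (5), 2 were left at a mitochondrial limit of 10%, 3 with at least 500 genes per cell and 2 with the members left out of clustering, against 9 without abundant genes and 9 with TMM. The summed acinar ratio (0.902) was 0.896 at the 10% limit, 0.918 at 500 genes, 0.909 without integration, 0.909 with the members left out of clustering, 0.907 without the highest doublet scores, 0.760 without abundant genes, 0.716 with TMM and 0.849 by the median cell. Members high in control acinar cells (2) numbered 5 at 1.5 times, 0 at 3 times and 5 without abundant genes, and in IR (5) 2 at 3 times. Ggh over both ducts (1.87) reversed to 0.912 at the 10% limit and 0.918 with the members left out of clustering. Intercalated duct cells had 3 alternatives chosen after seeing the data, of which 2 kept every member above 1. The highest ratios were 4.53 for Chia1, 2.09 for Dnase1, 2.67 for Ggh, 1.74 for Amy1 and 1.87 for Car6. The other alternative kept only the intercalated duct cells that stayed with duct cells without integration. They gave 0.746 for Chia1, 0.520 for Dnase1, 0.847 for Ggh, 0.618 for Amy1 and 0.482 for Car6. That clustering dropped 67 of 124 IR but 5 of 103 control cells to the Etv1+ cells. Both it and the main clustering used the members, and the duct ratios of each depend on where these cells were placed. None of these values is a test, and the causes of the shifts were not tested.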
